A study of Homo sapiens with 18 samples.

Results

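The genes described here are 10 members of the WNT5A signalling system. They are the ligands WNT5A and WNT5B, the receptors ROR1, ROR2, FZD2, FZD5, FZD7 and FZD8, and the secreted inhibitors DKK1 and DKK3. They were taken by symbol from count tables that list 56629 symbols, so the 10 rows are 10 of 56629. The tables come from RNA sequencing of human melanoma cell lines in which ARID2 was targeted by CRISPR. ARID2 is a subunit found in PBAF, a version of the SWI/SNF chromatin remodeller, and not in the BAF version. SKmel147 carries NRAS Q61R, 501mel carries BRAF V600E, and both were labelled as metastatic melanoma. In SKmel147 the control lines were Par, which has no construct, and NT, and the ARID2 knockout (KO) lines were KO1.4, KO1.5 and KO3.20. NT and these KO lines were stably infected with Lenti-Cas9 and with a PLKO vector for the guide RNA. In 501mel the control lines were Par, again without a construct, and NTC, and the KO lines were KO1.8 and KO5.2. NTC and these KO lines were virally transduced with Lenti-CRISPR V2, which holds both Cas9 and the guide. All lines grew in DMEM with serum. The labels do not spell out NT or NTC, and do not say whether a line is a clone or a pool. Each line gave 2 libraries, and nothing says that these came from separate cultures, so p-values measure only the spread between libraries, which may be technical.

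WNT5A and WNT5B are secreted ligands that act mainly without β-catenin. They bind a Frizzled receptor together with a ROR receptor tyrosine kinase, and pass the signal through Dishevelled to small GTPases, JNK and calcium. In melanoma, WNT5A is known for its link to cell motility and to the dedifferentiated, invasive state. DKK1 blocks the co-receptors LRP5 and LRP6 of the other, β-catenin dependent branch, while DKK3 is a divergent relative whose receptor use is less settled.

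The promoters of WNT5A and ROR1 are shown because these genes carry the differences described below, and that of DKK1 because its level separates the cell lines most clearly among genes with a listed promoter and counts in both. Each sequence holds the 250 bases before the annotated start, 5′ to 3′ on the gene's strand, from RefSeq on GRCh38.p14. RefSeq promoters were matched for 7 members, all but FZD2, FZD7 and DKK3. Capitals mark matches to 4 motifs searched on both strands, namely TGANTCA (AP-1), GGAATG (TEAD), CTTTGA (TCF/LEF) and CATGTG (MITF E-box).
WNT5A, chr3:55487307-55487556, minus strand: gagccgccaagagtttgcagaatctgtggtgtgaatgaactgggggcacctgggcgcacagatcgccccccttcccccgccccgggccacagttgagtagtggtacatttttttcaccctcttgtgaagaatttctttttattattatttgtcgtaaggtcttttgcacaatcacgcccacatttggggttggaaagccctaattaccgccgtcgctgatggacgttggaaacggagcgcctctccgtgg
ROR1, chr1:63773767-63774016, plus strand: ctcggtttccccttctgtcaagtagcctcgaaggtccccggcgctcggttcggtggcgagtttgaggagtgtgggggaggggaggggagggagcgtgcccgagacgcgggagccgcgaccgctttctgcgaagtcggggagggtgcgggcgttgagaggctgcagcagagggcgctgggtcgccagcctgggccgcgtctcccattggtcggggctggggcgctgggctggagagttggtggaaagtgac
DKK1, chr10:52314031-52314280, plus strand: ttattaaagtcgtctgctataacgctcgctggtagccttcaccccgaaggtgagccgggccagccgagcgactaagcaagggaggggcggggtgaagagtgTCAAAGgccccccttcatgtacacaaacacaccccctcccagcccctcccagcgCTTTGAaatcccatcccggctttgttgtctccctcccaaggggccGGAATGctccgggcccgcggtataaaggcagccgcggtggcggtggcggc
Of the 7 members, DKK1 alone held matches, 2 to CTTTGA with 1 on each strand, and 1 to GGAATG. These motifs occur in 11.2% (CTTTGA) and 11.9% (GGAATG) of 35114 promoter windows of that length, and TGANTCA and CATGTG in 6.57% and 9.42%. The WNT5A window had 52.8% GC and 14 CpG dinucleotides, against 69.2% and 24 for ROR1 and medians of 58.0% and 11 over all windows. A match is a description of the letters, not a binding site.

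SKmel147 gave 10 libraries of 21266522 to 35670140 counts and 501mel gave 8 libraries of 16749707 to 20606855 counts. ARID2, the targeted gene, ranged from 62.3 to 72.7 CPM (counts scaled to library size with TMM factors) over the SKmel147 control libraries, against 39.8 to 56.9 CPM with KO. In 501mel the ranges were 40.9 to 43.2 CPM and 19.7 to 31.9 CPM, so KO was lower in both cell lines, without overlap. In KO1.4 alone the ARID2 difference was not called (adjusted p 0.228, edgeR). Of 10 melanocyte lineage genes, 10 averaged at least 1 CPM in 501mel and 4 did in SKmel147. SOX10, a neural crest factor, was at 145.7 to 249.3 CPM in SKmel147, but the pigment genes TYR, DCT and PMEL reached at most 1.35 CPM there. Of 12 genes of the invasive melanoma state, 12 averaged at least 1 CPM in SKmel147 and 3 did in 501mel. Of the fibroblast genes, DCN was at 0 in all 18 libraries, but LUM was at 5.17 to 11.8 CPM and COL1A1 at 1.42 to 7.82 CPM in SKmel147, and the endothelial gene TIE1 reached 12.8 CPM in Par there. The other marker lists are given further on. In bulk RNA, fewer cells that express a gene and less RNA per cell cannot be told apart.

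The cell lines held different sets of WNT5A pathway genes before any KO. Levels of different genes are compared per kb of merged exons. In the SKmel147 controls the secreted inhibitors were highest, DKK1 at a mean of 42.8 CPM per kb and DKK3 at 27.4. FZD2, FZD8, WNT5B and WNT5A followed at 7.36, 5.52, 5.47 and 5.40 CPM per kb, with library ranges that overlapped each other. FZD5 at 1.73 and FZD7 at 1.23 CPM per kb also overlapped, ROR1 was far lower at 0.301, and ROR2 had 0 counts in all 10 libraries, KO included. In the 501mel controls the receptors led, with FZD7 at 9.36, FZD5 at 4.56, FZD2 at 2.89 and ROR1 at 1.74 CPM per kb, and no 2 of these 4 overlapped. DKK1, WNT5A and FZD8 were near the floor there, at 0.0703, 0.0667 and 0.0597 CPM per kb, and overlapped each other. WNT5B and DKK3 had 0 counts in all 8 libraries of 501mel, and ROR2 had 2 counts in 1 NTC library and 0 in the other libraries. A count of 0 allows up to 3 counts, or 0.0841 to 0.1415 CPM per library in SKmel147 and 0.1449 to 0.178 CPM in 501mel, by counting error alone. Thus neither cell line had ROR2 RNA above this floor, and the ROR receptor measured was ROR1.

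**Figure D1:**
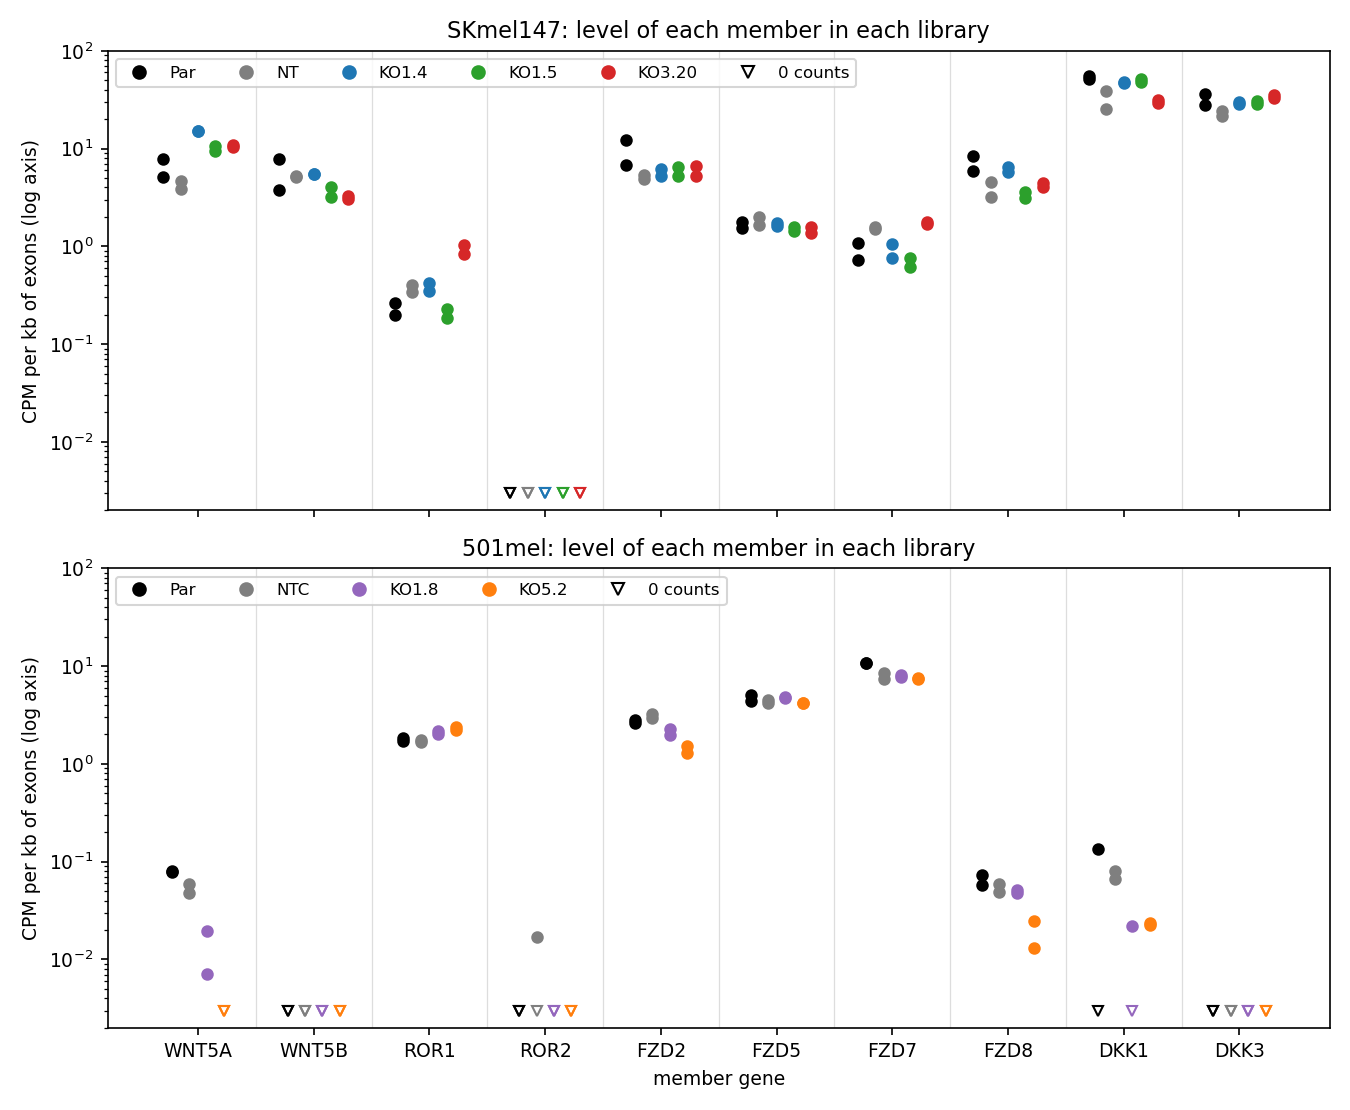
Level of each of the 10 genes in each library, in CPM per kb of merged exons on a log axis, for SKmel147 (top) and 501mel (bottom). Points are libraries, coloured by line, and open triangles mark libraries with 0 counts. DKK1 and DKK3 sit highest in SKmel147, where their control means are 42.8 and 27.4 CPM per kb, while FZD7 sits highest in 501mel, at 9.36, and WNT5B and DKK3 have 0 counts there.

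Tested between the controls of the cell lines, 9 of 9 members that passed the low-count filter of the joint fit differed, where 80.7% of all 19518 genes did. WNT5A, WNT5B, FZD2, FZD8, DKK1 and DKK3 were higher in SKmel147, and ROR1, FZD5 and FZD7 were higher in 501mel. Pooled over control libraries, the SKmel147 to 501mel ratio was 79.5-fold for WNT5A (95% counting interval 57.1 to 114), 91.3-fold for FZD8 (56.9 to 157) and 617.9-fold for DKK1 (345 to 1238). WNT5B was at least 538-fold and DKK3 at least 3253-fold higher in SKmel147, against a floor of 3 counts over the 4 control libraries of 501mel. FZD2 was higher in SKmel147 by a log2 difference of 1.34 ± 0.16 (SE). The receptors FZD7, ROR1 and FZD5 differed the other way, by log2 values of -2.91 ± 0.12, -2.51 ± 0.13 and -1.33 ± 0.09. The cell lines were deposited as separate count tables, so cell line and library set cannot be told apart.

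WNT5A, the ligand that names the pathway, was higher in the ARID2 KO lines of SKmel147. Its level in Par was 38.3 and 58.2 CPM, and in NT 34.7 and 28.7 CPM. KO1.4 had 112.2 and 111.3 CPM, KO1.5 had 78.1 and 70.6 CPM, and KO3.20 had 76.98 and 79.8 CPM. All 6 KO libraries lay above all 4 control libraries, and KO1.4 lay above the other KO lines. The line means were 39.97 ± 11.7 CPM (SD, n = 2 control lines) and 88.2 ± 20.5 CPM (SD, n = 3 KO lines). The log2 fold change was 1.15 ± 0.11 (SE), a 2.22-fold difference, with an adjusted p of 4.75e-05 in the edgeR quasi-likelihood test with Benjamini-Hochberg (BH) adjustment over all genes, under which 17.7% of the 18361 genes tested were called at 0.05. Against Par alone it was 0.85 ± 0.15 and against NT alone 1.45 ± 0.15, and both passed. KO1.4 alone gave 1.52 ± 0.14, KO1.5 gave 0.93 ± 0.14 and KO3.20 gave 1.00 ± 0.14, each called, where 8.77%, 11.2% and 12.6% of genes were. These comparisons share their control libraries. With the line as the replicate the difference was no longer called (adjusted p 0.127, edgeR), and limma voom, with libraries of a line as correlated, gave an adjusted p of 0.00844.

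In each KO library of SKmel147 the WNT5A level per kb, 9.54 to 15.2 CPM per kb, lay above the FZD2, FZD8 and WNT5B levels in any KO library. The highest of these was 6.60 CPM per kb, for FZD2. In the control libraries the ranges of these 4 genes had overlapped.

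In 501mel WNT5A stood near the detection floor and differed the other way. Its raw counts were 10 and 10 in Par, 6 and 9 in NTC, 1 and 3 in KO1.8, and 0 and 0 in KO5.2. The control libraries were at 0.357 to 0.591 CPM and the KO libraries at 0 to 0.145 CPM, without overlap. Pooled counts gave a level 4.9-fold higher in controls than in KO1.8 (95% counting interval 1.75 to 19.0), and KO5.2 was at least 6.38-fold lower than controls. For both KO lines together the ratio was 9.69 (3.46 to 37.5). The gene passed the low-count filter only through the 2 Par libraries, so it was tested because it was high in a control line. The fitted log2 fold change of -4.21 ± 0.67, adjusted p 0.000143 (edgeR quasi-likelihood, BH), depends on the handling of the zeros and is no measure of size. It was -6.18 without KO1.8 and -2.21 without KO5.2. For KO1.8 against controls the call was lost without its first library (-1.69, adjusted p 0.0995) and in the DESeq2 Wald test (-2.28, adjusted p 0.104). Taking each line as 1 replicate gave an adjusted p of 0.291 for the KO mean, and voom 0.0614.

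The difference between these opposite WNT5A differences was tested in a joint fit of all 18 libraries. The KO effect in SKmel147 minus that in 501mel was 5.54 ± 0.73 on the fitted log2 scale, adjusted p 5.41e-05 (edgeR quasi-likelihood, BH). Its size rests on the zeros in KO5.2. The joint fit was not repeated with the line as the replicate, under which neither KO effect on WNT5A was called. WNT5A was called, where 21.3% of 19518 genes were. WNT5B and DKK3 have no 501mel counts and FZD8 and DKK1 hardly any, so the test says nothing of them, and FZD5 was at -0.12 ± 0.12. For ROR1 the difference of KO effects was 0.21 ± 0.17 and for FZD7 0.08 ± 0.16, both not called. For FZD2 it was 0.48 ± 0.23, adjusted p 0.16 (edgeR, BH), with an interval of 0.03 to 0.94. It passed when the second SKmel147 Par library was left out, at 0.71, and after a correction for GC content and length, at 0.51.

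**Figure D2:**
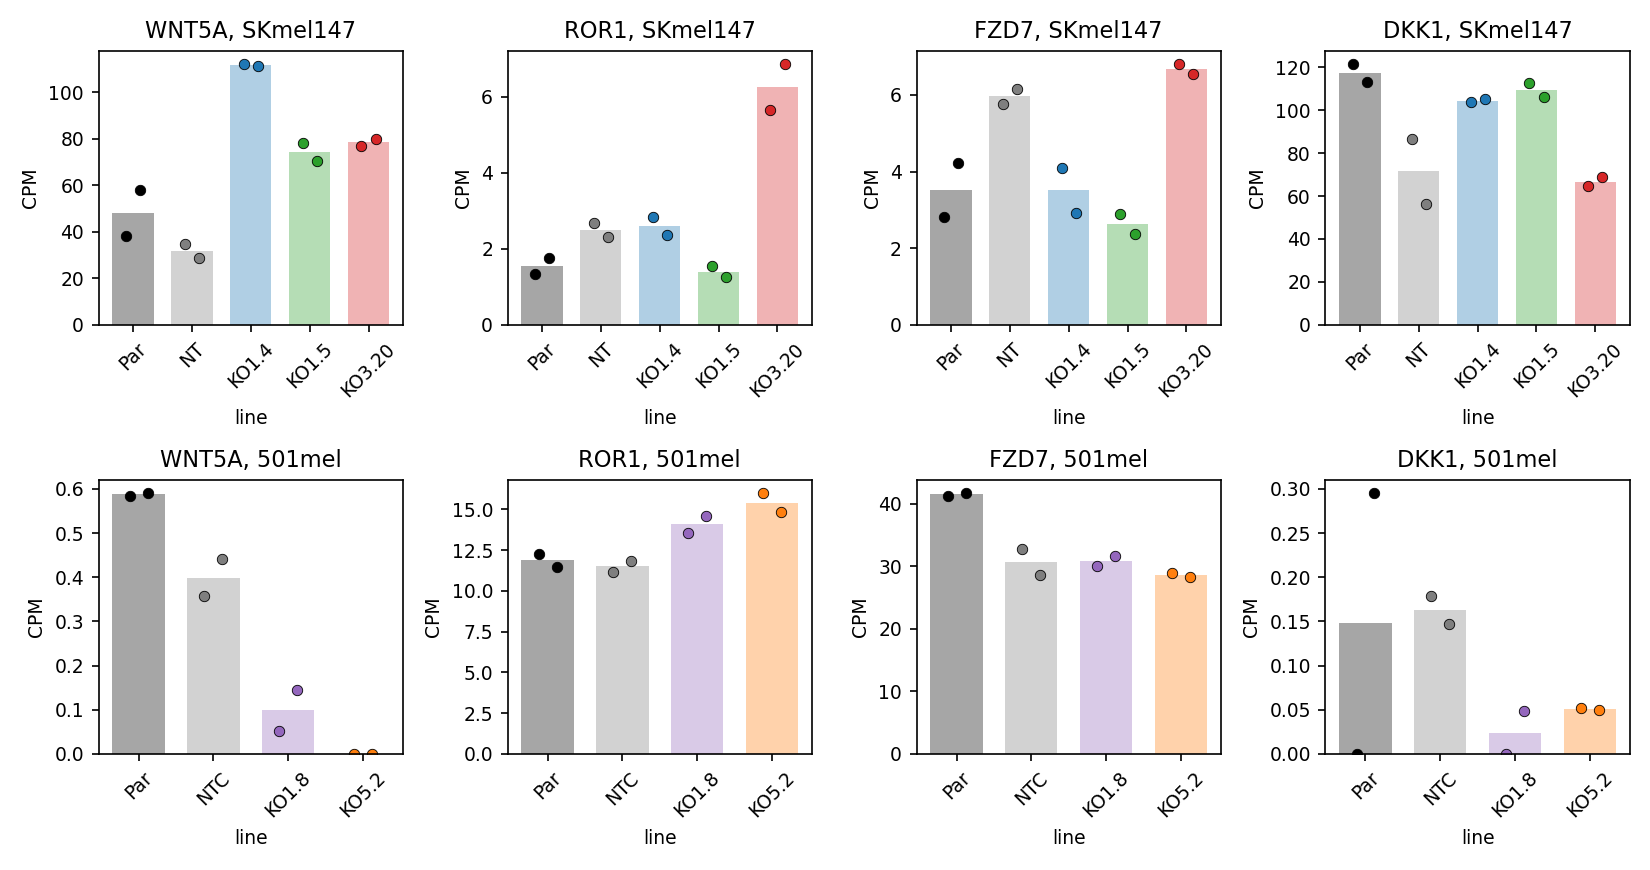
CPM of WNT5A, ROR1, FZD7 and DKK1 in each line of SKmel147 (top) and 501mel (bottom). Bars are means of the 2 libraries of a line and points are libraries, and each panel has its own linear scale from 0. WNT5A is above its controls in all 3 KO lines of SKmel147 and below them in 501mel at under 0.6 CPM, while high ROR1 in SKmel147 is found in KO3.20, at 5.65 and 6.87 CPM.

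WNT5B, the paralog of WNT5A, did not follow it. In SKmel147 it was at 16.3 and 33.3 CPM in Par, 22.4 and 22.1 CPM in NT, 23.5 and 23.7 CPM in KO1.4, 13.8 and 17.3 CPM in KO1.5, and 14.2 and 13.2 CPM in KO3.20. The Par libraries spanned most of the range, and KO1.4 lay within it. KO against controls gave a log2 fold change of -0.45 ± 0.16, adjusted p 0.0783 (edgeR, BH), which was not called. It passed in 5 of 22 alternatives, among them without the first Par library, at -0.66. In KO3.20 it fell, by -0.77 ± 0.23, adjusted p 0.045, and this call was lost against NT alone (-0.70, adjusted p 0.114, edgeR, BH) and without any 1 of 8 of the 10 libraries (all but those of Par), the values then running from -0.99 to -0.48 over all 10 removals. WNT5B could not be tested in 501mel, where it had no counts.

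ROR1, the receptor kinase that binds WNT5A, was high in 1 KO line of SKmel147. It was at 1.35 and 1.76 CPM in Par, 2.68 and 2.30 CPM in NT, 2.83 and 2.37 CPM in KO1.4, 1.54 and 1.25 CPM in KO1.5, and 5.65 and 6.87 CPM in KO3.20. KO3.20 thus lay above every other library, while KO1.4 and KO1.5 lay among or beside the controls. In KO3.20 the log2 fold change was 1.67 ± 0.20, adjusted p 0.000245 (edgeR quasi-likelihood, BH), and it stayed called in all 17 alternatives tried for that line. KO1.4 at 0.40 ± 0.22 and KO1.5 at -0.48 ± 0.23 were not called. The mean over KO lines, 0.53 ± 0.16 with an adjusted p of 0.0433, therefore describes KO3.20. Without that line it was -0.03 ± 0.20, and the call was also lost against NT alone (0.18, adjusted p 0.634), without KO1.4 (0.60, adjusted p 0.0604), and without 9 of the 10 libraries in turn (edgeR, BH).

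In 501mel, where ROR1 was more abundant, the KO difference was small and present in both KO lines. It was at 12.3 and 11.5 CPM in Par, 11.2 and 11.9 CPM in NTC, 13.6 and 14.6 CPM in KO1.8, and 16.0 and 14.8 CPM in KO5.2. No KO library fell among the control libraries. The log2 fold change was 0.33 ± 0.07, or 1.26-fold, adjusted p 0.00144 (edgeR, BH). By line it was 0.27 ± 0.09 in KO1.8 and 0.40 ± 0.09 in KO5.2. In KO1.8 it was no longer called against Par alone (0.25, adjusted p 0.0864, edgeR) or in the DESeq2 Wald test. The call was also lost without Par library 2, NTC library 1 or KO1.8 library 2, with values of 0.21 to 0.33 over 8 removals. Of the 16230 genes tested in 501mel, 51.3% were called for the mean of the KO lines, 40.2% in KO1.8 and 53.5% in KO5.2, so a call was common there. With the line as the replicate ROR1 had an adjusted p of 0.394 (edgeR), and voom did not call it.

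FZD2, a Frizzled receptor that takes WNT5A as a ligand, fell in the KO lines of 501mel. It was at 5.91 and 5.55 CPM in Par, 6.18 and 6.76 CPM in NTC, 4.83 and 4.15 CPM in KO1.8, and 3.25 and 2.71 CPM in KO5.2. KO libraries lay below all controls, with KO5.2 below KO1.8. The log2 fold change was -0.74 ± 0.12, adjusted p 0.000104, and it was -0.44 ± 0.14 in KO1.8 and -1.03 ± 0.15 in KO5.2 (edgeR, BH). KO5.2 differed from KO1.8 by -0.59 ± 0.18, adjusted p 0.015, in a comparison in which 41.3% of genes were called, and not without KO1.8 library 1 or KO5.2 library 2 (-0.72 to -0.46 over 8 removals). The KO1.8 value was not called against Par alone (-0.35, adjusted p 0.115, edgeR) or in the DESeq2 Wald test. Nor was it called without KO1.8 library 2 or NTC library 2 (-0.54 to -0.34 over 8 removals). With the line as the replicate the difference of the KO mean had an adjusted p of 0.366 (edgeR), and voom did not call it.

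In SKmel147 FZD2 was not called in any KO line. It was at 14.3 and 26.1 CPM in Par, 11.4 and 10.4 CPM in NT, and 11.1 to 13.9 CPM in the 6 KO libraries, with a KO log2 fold change of -0.26 ± 0.16. The second Par library was the highest of all 10 and without it the value was -0.02, while without the first Par library it was -0.44 and called. Against Par alone the change was -0.70, which was called, and against NT alone 0.18, which was not.

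FZD7 differed between lines rather than between KO and control. In SKmel147 it was at 2.80 and 4.21 CPM in Par, 5.76 and 6.15 CPM in NT, 4.10 and 2.92 CPM in KO1.4, 2.90 and 2.38 CPM in KO1.5, and 6.81 and 6.54 CPM in KO3.20. KO3.20 and NT formed the upper levels and the other 3 lines the lower. The mean of the KO lines was not called, at -0.20 ± 0.16. KO1.5 fell by 0.78 on the log2 scale, adjusted p 0.0413, but by 0.39 against Par alone, adjusted p 0.327 (edgeR, BH), and the call was also lost without any 1 of 9 of the 10 libraries (all but the first of Par), with -0.93 to -0.62 over 10 removals. KO3.20 minus KO1.5 was 1.33 ± 0.24, adjusted p 0.00903, in a comparison that called 5.25% of genes, and not without KO1.5 library 2 or either KO3.20 library (1.19 to 1.48 over 10 removals).

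In 501mel FZD7 was the most abundant of the 10 genes per kb. It was at 41.4 and 41.8 CPM in Par, 32.9 and 28.6 CPM in NTC, 30.1 and 31.6 CPM in KO1.8, and 28.9 and 28.3 CPM in KO5.2. Par stood alone, and NTC overlapped both KO lines. The log2 fold change of KO against both controls was -0.26 ± 0.06, adjusted p 0.0011 (edgeR, BH). Against NTC alone it was -0.04 ± 0.07, adjusted p 0.633, and for KO1.8 it turned to 0.01. The KO1.8 call was also lost without NTC library 1 or KO1.8 library 1 (-0.25 to -0.15 over 8 removals), and in the DESeq2 Wald test. The KO mean was not called with the line as the replicate or with voom. NTC minus Par was itself -0.44 ± 0.08, adjusted p 0.00142, so the difference between the controls was the larger.

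FZD5 was called in neither cell line. It ranged from 9.19 to 13.2 CPM over the 10 SKmel147 libraries and from 27.9 to 33.7 CPM over the 8 of 501mel. The KO log2 fold changes were -0.16 ± 0.10 and -0.03 ± 0.06, with intervals of -0.36 to 0.04 and -0.14 to 0.08. FZD8 was at 23.9 and 33.8 CPM in Par of SKmel147, 13.0 and 18.3 CPM in NT, 26.2 and 23.1 CPM in KO1.4, 12.6 and 14.7 CPM in KO1.5, and 17.9 and 16.2 CPM in KO3.20. Par and KO1.4 were high and the other lines lower. KO1.5 fell by 0.64 on the log2 scale, adjusted p 0.0384 (edgeR, BH), a call that was lost against NT alone (-0.20, adjusted p 0.63) and without any 1 of 8 of the 10 libraries (all but the first of Par and of NT), with -0.75 to -0.50 over 10 removals. In 501mel FZD8 had 1 to 5 counts per library and was not tested. Its pooled control to KO ratio was 1.71 (95% counting interval 0.756 to 4.04).

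**Figure D3:**
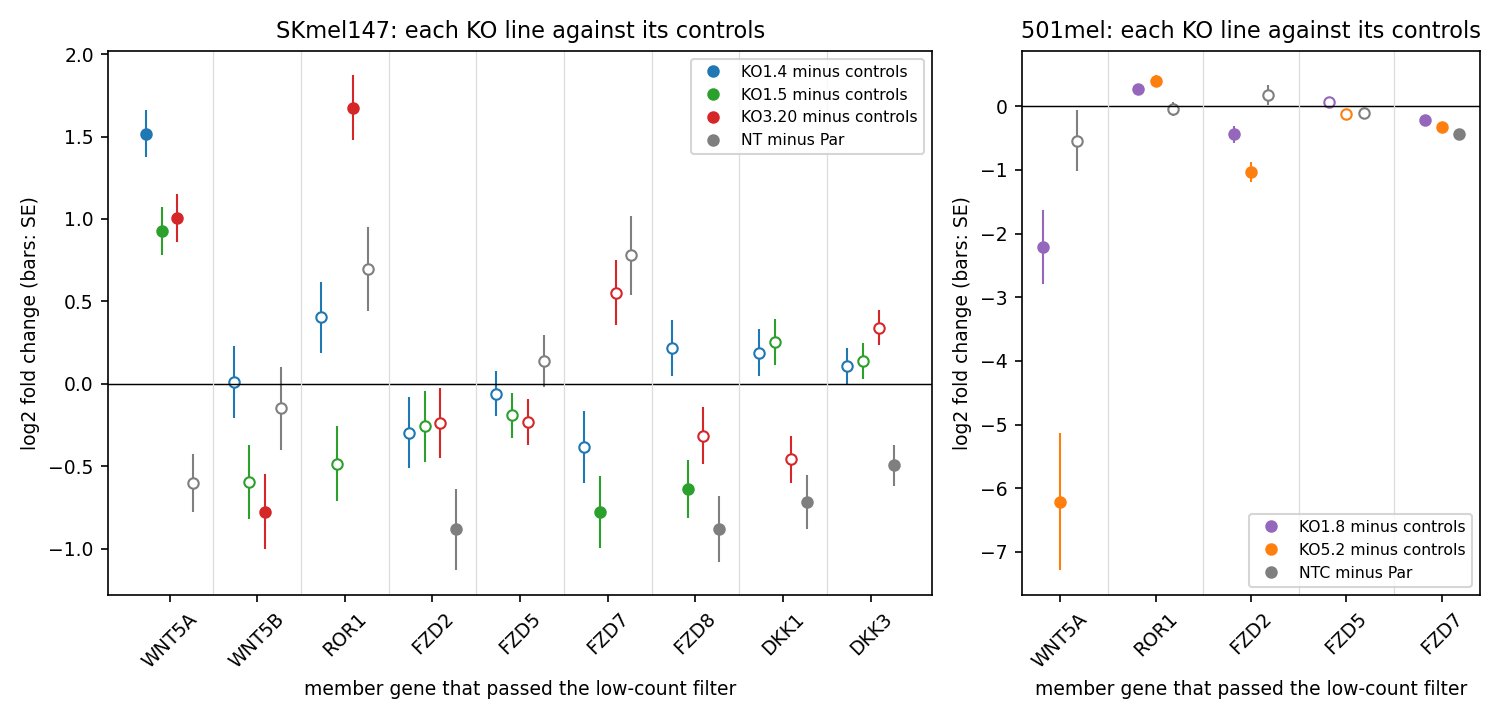
Log2 fold change with its SE (bars) of each member that passed the low-count filter, for each KO line against both controls and for the transduced control against Par (grey), in SKmel147 (left) and 501mel (right). Filled points were called at an adjusted p under 0.05. WNT5A is the gene called in all 3 KO lines of SKmel147, at 1.52, 0.93 and 1.00, and the grey points of FZD2, FZD8, DKK1 and DKK3 are as far from 0 as most KO points.

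The secreted inhibitor DKK1, abundant in SKmel147, was not called for the mean of the KO lines. It was at 121.6 and 113 CPM in Par, 86.5 and 56.4 CPM in NT, 103.6 and 105.4 CPM in KO1.4, 112.7 and 106 CPM in KO1.5, and 64.6 and 68.7 CPM in KO3.20. KO1.4 and KO1.5 lay near Par, and KO3.20 within the range of NT. The log2 fold change was 0.00 ± 0.10, with an interval of -0.21 to 0.20. KO3.20 minus KO1.5 was -0.71 ± 0.16, adjusted p 0.0272 (edgeR, BH), and was not called without any 1 of the 6 KO libraries (-0.77 to -0.67 over 10 removals). KO3.20 against both controls, at -0.46 ± 0.14, had an adjusted p of 0.059 and passed in 5 of the alternatives, among them Par alone at -0.82. In 501mel DKK1 had 0 and 5 counts in Par, 3 and 3 in NTC, and 0 or 1 in each KO library. The pooled control to KO ratio was 4.06 with a wide counting interval of 1.07 to 22.7, and the gene was below the filter.

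DKK3 was at 142.7 and 181.7 CPM in Par of SKmel147, 121.2 and 109 CPM in NT, and 143.2 to 178.9 CPM in the 6 KO libraries. The KO libraries lay within the Par range and above NT. The log2 fold change of KO against both controls was 0.20 ± 0.08, adjusted p 0.125 (edgeR, BH). Against NT alone it was 0.44, which was called, and against Par alone -0.05, which was not.

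Counted together, 9 of the 10 members were tested in SKmel147 and 2 were called for the mean of the KO lines, WNT5A and ROR1, both higher, where 8.07% of genes were called higher and 9.6% lower. The median log2 fold change of the 9 was -0.16, and that of all genes -0.01. Calls by line were 1 in KO1.4, 3 in KO1.5 (WNT5A higher, FZD7 and FZD8 lower) and 3 in KO3.20 (WNT5A and ROR1 higher, WNT5B lower). Of all genes, 8.77%, 11.2% and 12.6% were called in these lines, in that order. In 501mel 5 members were tested and 4 were called, ROR1 higher and WNT5A, FZD2 and FZD7 lower, where 24.7% of genes were called higher and 26.5% lower. The same 4 were called in each 501mel KO line, where 40.2% of genes were called in KO1.8 and 53.5% in KO5.2. The share called in 501mel is read against 51.3% of all genes, and WNT5A was among the tested through its control level only.

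The control lines also differed from each other. In SKmel147, NT minus Par called 4 of 9 members, all lower in NT, where 9.27% of genes were called. These were FZD2 (-0.88 ± 0.25), FZD8 (-0.88 ± 0.20), DKK1 (-0.72 ± 0.16) and DKK3 (-0.49 ± 0.13). WNT5A was -0.60 ± 0.17, adjusted p 0.0517 (edgeR, BH). With 1 library left out in turn, the calls of DKK1, FZD8, DKK3 and FZD2 were kept in 10, 8, 4 and 2 of 10 removals, and FZD2 ran from -1.26 to -0.41. The difference of NT from Par fell with GC content over all genes (Spearman's rho -0.405), and FZD2 and FZD8 have the GC-richest transcripts of the 10, at 64.9% and 64.6%. After a correction for GC content and length, FZD2 was at -0.36 and DKK3 at -0.31, both no longer called, and FZD8 at -0.42 and DKK1 at -0.83 remained called. WNT5A at -0.70 and FZD7 at 0.96 were then called as well. What made the control lines differ was not tested. The first and second library of a SKmel147 line differed along GC content too, with rho of -0.638 to 0.51 over the 5 lines. In 501mel NTC minus Par called FZD7 only, where 15.7% of genes were called, and rho between libraries of a line was 0.1 to 0.312.

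Among KO lines of SKmel147, ROR1 in KO3.20 was called against both other KO lines. KO1.5 minus KO1.4 called no member in edgeR (4 at an unadjusted p under 0.05, and 2 in the DESeq2 Wald test), where 2.17% of genes were called. KO3.20 minus KO1.4 called ROR1 (1.27 ± 0.24), where 1.9% of genes were called, but not without any 1 of the 4 libraries of these lines (1.12 to 1.4 over 10 removals). KO3.20 minus KO1.5 called ROR1 (2.16 ± 0.25), FZD7 and DKK1, where 5.25% of genes were called. The WNT5A difference between KO lines did not pass, at -0.59 ± 0.17 for KO1.5 minus KO1.4 (adjusted p 0.114) and -0.51 ± 0.17 for KO3.20 minus KO1.4 (adjusted p 0.207, edgeR, BH). These line comparisons were added after the data were seen.

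The other genes of the pathway were counted from lists of ligands, receptors, secreted regulators and effectors. Each count of calls is to be read against all genes tested, of which 8.07% were higher and 9.6% lower in SKmel147, and 24.7% higher and 26.5% lower in 501mel. Of the 17 other WNT ligands, 5 passed the filter in SKmel147 and 3 in 501mel. WNT7B rose in SKmel147, by 1.42 ± 0.39, although NT exceeded Par by 1.89. In 501mel, where 51.3% of all genes were called, the 3 tested ligands fell, namely WNT10B (-1.49 ± 0.15), WNT3 (-1.05 ± 0.15) and WNT2B (-0.71 ± 0.19), with a median of -1.05. For WNT10B and WNT3 the ranges of control and KO libraries did not overlap, for instance 5.44 to 6.81 CPM against 1.42 to 2.66 CPM for WNT10B.

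Of 10 other receptors, 8 were tested in SKmel147 (1 higher, 2 lower, with 17.7% of all genes called) and 9 in 501mel (2 higher, 4 lower, with 51.3% called). PTK7, a pseudokinase co-receptor of planar polarity, fell in SKmel147 by 0.67 on the log2 scale and rose in 501mel by 0.36 ± 0.05, and this difference between the cell lines was called, at -1.02 ± 0.15. LRP6, the co-receptor blocked by DKK1, rose by 0.33 ± 0.07 in SKmel147, and FZD4 fell by 0.49. In 501mel FZD6 rose by 0.39 ± 0.07, FZD1 fell by 0.55, and FZD9 went from 0.784 to 1.66 CPM in controls to 0.0966 to 0.201 CPM in KO libraries. FZD9 passed the filter there, which is at 0.519 CPM, only through the controls, so it was tested because it was high in them.

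Of 25 secreted regulators and their receptors, 13 were tested in SKmel147 (2 higher, 4 lower, with 17.7% of all genes called) and 11 in 501mel (4 higher, 4 lower, with 51.3% called). SFRP1, a secreted WNT antagonist with the highest level of the family in SKmel147 at 105 CPM per kb, rose by 0.27 ± 0.07 with overlapping ranges. FRZB, of the same family, fell from 1.39 to 2.45 CPM in controls to 0.296 to 0.733 CPM in KO libraries. LGR5, a receptor for R-spondins, was at 0.258 to 0.72 CPM in controls and 0 to 0.137 CPM in KO libraries. TPBG, a membrane inhibitor of the β-catenin branch, fell in both cell lines, by 0.59 in SKmel147 and from 0.238 to 0.877 CPM to 0 to 0.104 CPM in 501mel. WLS, which carries WNT proteins to the cell surface, fell in 501mel by 0.58 on the log2 scale, from 87.4 to 93.4 CPM to 57.7 to 65.7 CPM, and in SKmel147 by 0.22. In 501mel DKK2 fell too, and RNF43, a ligase that removes Frizzled receptors, rose by 0.38 with overlapping ranges and NTC below Par by 1.02. TPBG and DKK2 in 501mel, and LGR5 in SKmel147 (filter at 0.341 CPM), were tested only through control libraries above the filter, so their lower counts describe genes that were high in controls.

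Of 32 effectors of the β-catenin independent branch, 28 were tested in each cell line. In SKmel147, 3 rose and 3 fell, and in 501mel 6 rose and 15 fell, with medians of 0.02 and -0.15 against -0.01 for all genes in each. Over all genes 17.7% were called in SKmel147 and 51.3% in 501mel. PRKCA, protein kinase C alpha, fell in 501mel by 1.34 on the log2 scale, from 28.8 to 34.8 CPM to 11 to 14.2 CPM. SIAH2, a ubiquitin ligase, fell by 0.74 and MAPK9, the kinase JNK2, rose by 0.53 ± 0.05 there. In SKmel147 NFATC2, a calcium-regulated transcription factor, rose by 1.10 ± 0.13 and PRICKLE2, a planar polarity protein, by 0.73 ± 0.13, while PPP3CA, a calcineurin subunit, fell by 0.35. DAAM2, a formin that binds Dishevelled, was lower in SKmel147 at under 2 CPM (-2.61 ± 0.37, with NT below Par by 1.55) and higher in 501mel (0.64 ± 0.06). The difference between cell lines was -3.23 ± 0.32 on the fitted scale.

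In the β-catenin branch, 1 of 14 tested core genes rose and 2 fell in SKmel147, and 5 of 15 rose and 5 fell in 501mel, where 17.7% and 51.3% of all genes were called. CTNNB1, β-catenin itself, was called slightly higher in both, by 0.21 ± 0.06 and 0.25 ± 0.04. Its control and KO ranges overlapped in each cell line (421 to 440 against 425 to 565 CPM in SKmel147, 1261 to 1632 against 1590 to 1759 CPM in 501mel). In 501mel NTC lay below Par by 0.33, more than the KO difference. PYGO2 and AXIN1 fell in SKmel147, by 0.27 and 0.32, and GSK3A, CTNNBIP1 and BCL9L rose in 501mel, by 0.41, 0.46 and 0.39. Among these, only the ranges of GSK3A did not overlap. In 501mel NTC differed from Par by -0.35 for CTNNBIP1 and by 0.34 for BCL9L. The other core genes called there, named after their values were seen, were CSNK1A1, which rose by 0.26, and TCF7L2, BCL9, LEF1, GSK3B and PYGO1, which fell by 0.31, 0.28, 0.24, 0.21 and 0.20. Of 8 target genes of this branch, 5 were tested in SKmel147 (1 higher, 1 lower) and 7 in 501mel (3 higher, 2 lower). MYC fell in both cell lines, by 0.54 and 0.33, and TNFRSF19 rose in both, by 0.56 ± 0.17 and 0.64 ± 0.04. For TNFRSF19 in 501mel, NTC lay below Par by 0.62, close to the KO difference. The TNFRSF19 ranges did not overlap there (88.65 to 143.5 against 162.9 to 182.3 CPM). In SKmel147 the TNFRSF19 ranges overlapped (1.57 to 2.37 CPM in controls against 1.48 to 4.28 CPM). CCND1 rose by 0.64 ± 0.03 and APCDD1 by 0.18 ± 0.03 in 501mel. AXIN2, also named after its values were seen, fell there by 0.26. For CCND1 NTC lay below Par by 0.46, and the ranges did not overlap (581 to 825 against 990 to 1167 CPM). For APCDD1 the ranges overlapped (271 to 317 against 246 to 450 CPM), and NTC lay below Par by 0.21, more than the KO difference.

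**Figure D4:**
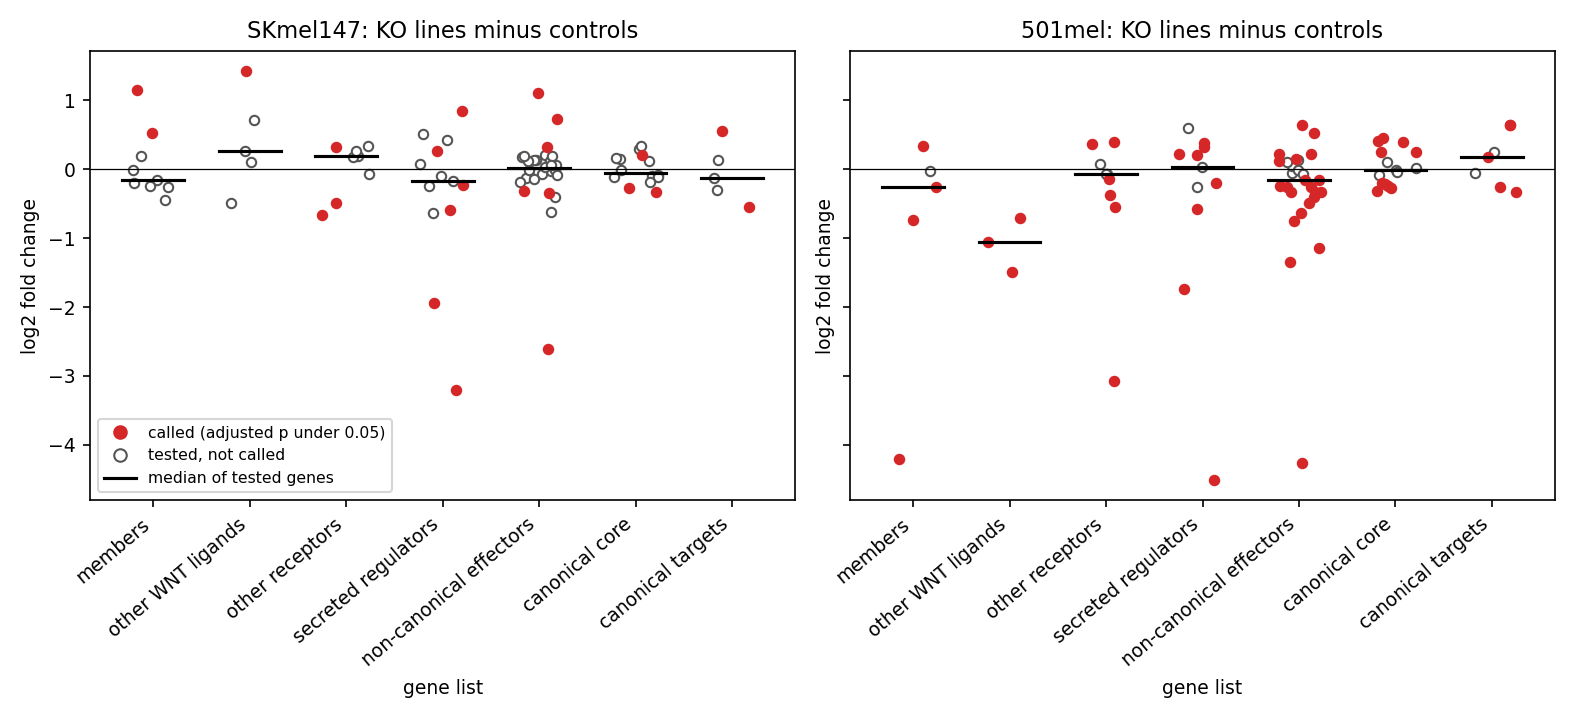
Log2 fold changes of KO against controls for the members and 6 lists of WNT pathway genes in SKmel147 (left) and 501mel (right). Each point is a gene that passed the low-count filter, red where it was called at an adjusted p under 0.05, and bars are medians of the tested genes. The members' medians are -0.16 and -0.26, and the 3 other WNT ligands tested in 501mel have a median of -1.05.

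Of 12 genes of the invasive state, 2 rose and 3 fell in SKmel147, where 17.7% of all genes were called. SNAI2, a transcription factor on this list, rose by 0.70 ± 0.09, although NT lay below Par by 0.87. Its ranges of control and KO libraries overlapped (28.1 to 60.4 against 54.8 to 102 CPM). Between the control lines, 11 of the 12 genes were higher in SKmel147, but SNAI2 was higher in 501mel. TNC fell by 0.62, with NT below Par by 1.26 and overlapping ranges (465 to 1265 against 446 to 593 CPM). CYR61 and AXL fell by 0.51 and 0.37, also with overlapping ranges (513 to 730 against 323 to 586 CPM, and 1165 to 1467 against 829 to 1173 CPM). In 501mel 7 were tested and CYR61, SNAI2, CTGF and TGFBI fell, where 51.3% of all genes were called, and TGFBI was tested only through its control level. CTGF fell by 0.36, less than the 0.94 by which NTC exceeded Par, with overlapping ranges (15.7 to 33.3 against 12.7 to 24.2 CPM). CYR61 fell by 1.33, with NTC above Par by 0.83 and overlapping ranges (10.1 to 19.3 against 2.73 to 10.7 CPM). SNAI2 was at -0.32 ± 0.05 there, again with overlapping ranges (108 to 125 against 78.7 to 121 CPM), and the difference of its KO effects was 1.02 ± 0.11 (edgeR, BH, adjusted p 3.21e-06). Of 10 melanocyte lineage genes, 5 were tested in SKmel147, with a median of -0.15, and 10 in 501mel. In 501mel DCT was higher, and TYRP1, S100B and PAX3 were among 4 lower. DCT rose by 0.41, less than the 0.71 by which NTC lay below Par, with overlapping ranges (297 to 553 against 529 to 561 CPM). TYRP1 fell by 0.99, with NTC above Par by 0.45 and overlapping ranges (3154 to 4492 against 980 to 3739 CPM). The ranges of S100B and PAX3 did not overlap.

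Markers of other cell types were low, and some differed between KO and control libraries. The summed level of 7 fibroblast genes was 9.9 to 12.1 CPM in SKmel147 controls and 12.9 to 18.7 CPM in KO libraries, where COL1A1 rose by 1.67 ± 0.21. In 501mel it was 1.81 to 2.42 CPM and 0.42 to 0.884 CPM. The 5 endothelial genes summed to 1.56 to 13.5 CPM in SKmel147 controls, because TIE1 reached 12.8 CPM in Par, and to 0.703 to 2.03 CPM in KO libraries. The 6 leukocyte genes summed to 0.468 to 0.757 CPM in SKmel147 controls and 0.621 to 1.59 CPM in KO libraries. ITGAM was called higher there (0.0339 to 0.112 against 0.0917 to 0.425 CPM). It was tested only through KO libraries above the filter, and CD14 reached 0.978 CPM. CD3E was at 0 in every SKmel147 library and PTPRC reached at most 0.112 CPM there, while in 501mel CD3E reached at most 0.0502 CPM and PTPRC was at 0. The leukocyte sums in 501mel were 0.119 to 0.539 CPM in controls and 0.21 to 0.402 CPM in KO libraries. The 5 keratinocyte genes summed to 17.6 to 27.2 CPM in controls and 19.4 to 24.1 CPM in KO libraries of SKmel147, nearly all KRT10, with KRT14 higher in KO (0.559 to 0.972 against 1.57 to 2.55 CPM). In 501mel 4 of the 5 were at 0. The part of these markers in the WNT5A values was not tested.

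For members that passed the filter in both cell lines, the genes with the most similar pattern were found by Pearson's r over the 9 lines, with each cell line centred, among 9009 genes. The lines of a cell line share their origin and library set, so r is a description only. Nearest to WNT5A were ZNF827 (0.966), S100A13 (0.962) and TET2 (0.942), and within the 5 SKmel147 lines alone these had r of 0.979, 0.991 and 0.943. Nearest to ROR1 were BRWD1 (0.95), ANKRD28 (0.945) and INPP5F (0.922), but within the 4 lines of 501mel the first 2 had r of 0.512 and 0.167. FZD2 was nearest to ZNF282 (0.986), BAZ2A (0.972) and STAT6 (0.969). FZD5 was nearest to ICT1 (0.961), PLGRKT (0.934) and LPIN2 (0.916), and FZD7 to NCAPG2 (0.895), CNOT6L (0.892) and LMNB1 (0.881). Among the members themselves, WNT5A and ROR1 had r of 0.234 over the 5 SKmel147 lines and -0.95 over the 4 lines of 501mel. WNT5A had only 0 to 10 counts per library in 501mel, so that r rests on values near the floor. FZD7 and DKK1 had r of -0.946 in SKmel147.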

How the data were processed

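The authors deposited a table for each cell line, holding unnormalized read counts by gene symbol. Per the submitters' processing notes, STAR 2.6.0, featureCounts and the builds GRCh37 and hg19 were used. Which annotation release, strand setting and rule for multiply mapped reads applied is not given in the sources used here, so overlapping or antisense genes are uncertain. Per the labels' protocols, a directional kit was used on polyadenylated RNA.

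The analysis used edgeR 4.0.16 under R 4.3.3. SKmel147 and 501mel had their own fits, with TMM scaling, filterByExpr by line (minimum count 10) and 1 coefficient per line. Called means an adjusted p under 0.05 in the quasi-likelihood test, with BH over all genes tested. KO against controls contrasts the equally weighted KO lines with the equally weighted Par and NT or NTC. The difference of KO effects and the contrast of controls came from a joint fit of 18 libraries. Fold changes are log2 values, errors are SE unless named, and ranges of fitted values are 95% intervals. Ratios of counts carry 95% exact intervals for counting error only, and a count of 0 is taken as up to 3 counts. Exon lengths and GC content are from GENCODE 29 by symbol, and 83.8% of SKmel147 and 85.6% of 501mel tested genes had them.

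The tests were tried on simulated counts first. The 10 members, the gene lists and the tests were chosen with earlier results of these data known. Named genes are the members, ARID2, up to 4 called genes per list and cell line by smallest p, and the 3 genes nearest each member that passed the filter in both cell lines. Libraries of a line differed beyond counting error (chi-square per degree of freedom 13.8 to 36.7 in SKmel147 and 2.42 to 4.63 in 501mel). Alternatives used DESeq2 1.42.0 size factors or its Wald test, no low-count filter, a replicate block, a GC and length correction, either control alone, each KO line or library left out, the line as the replicate, and limma 3.58.1 voom. The joint fit was not repeated with the line as the replicate or with voom. Comparisons between KO lines, and either control alone for single KO lines, were added after the data had been seen. RefSeq promoters are on GRCh38.p14, a different build from that of the counts, and no count was placed on them.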

Additional observations from a re-analysis of the deposited data

Results flagged for a closer look

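The KO effect on WNT5A differed between the cell lines, at 5.54 on the fitted log2 scale for SKmel147 minus 501mel (edgeR, adjusted p 5.41e-05). This difference was not refitted with the line as the replicate. WNT5A was higher in 6 of 6 KO libraries of SKmel147 and lower in 4 of 4 KO libraries of 501mel than in any control library. The 501mel side rests on 35 control counts and 4 KO counts.

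ROR2 was at 0.098 CPM in the second NTC library of 501mel, which is 2 counts, while the other 3 control libraries had 0. DKK1 was at 0 CPM in the first KO1.8 library of 501mel, while the other 3 KO libraries had 1 count each. Both stood far from the rest of their group relative to its range, and both are differences of 1 or 2 counts. Of 33 groups screened in this way 2 stood out. A rate of 1 in 20 would give 1.65, but that rate need not hold for groups of a few counts, so the 2 numbers cannot be compared.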

How the results depend on the processing

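Of 1986 values of single members under an alternative, 1734 kept direction and side of the threshold, 105 lost the call, 85 gained it, 60 changed sign without a call and 2 called values changed sign, ROR1 in SKmel147 without KO3.20 (-0.035) and FZD7 in KO1.8 against NTC alone (0.012). Whether the replicate numbers pair the libraries is not settled. Correlations of same-numbered libraries ran from -0.404 to 0.485 in SKmel147 (3 of 10 pairs over 0.1) and from -0.012 to 0.165 in 501mel (3 of 6). The difference of first and second library had the same sign of rho with GC content in every 501mel line (0.1 to 0.312). In SKmel147 it had both signs (-0.638 to 0.51). With the replicate block 1 member was called in SKmel147 KO, against 2 in the main fit, and 4 in 501mel KO as before.

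Genes called in SKmel147 KO numbered 3245, and 5312 after the GC and length correction, 2076 with NT alone, 2094 without KO3.20, 13 with the line as the replicate and 597 with voom. In 501mel they numbered 8325, and 942 with voom and 0 with the line as the replicate (2360 at an unadjusted p under 0.05). Members called in SKmel147 KO were 5 with the GC and length correction, 4 with Par alone (where 3628 genes were called), 1 without KO3.20, 1 with voom and 0 with the line as the replicate (1 at an unadjusted p under 0.05). For 501mel KO they were 0 with the line as the replicate and 0 with voom (1 and 2 at an unadjusted p under 0.05). For KO3.20 they were 5 with the Wald test, 5 without the filter, 7 after the GC and length correction and 6 against Par alone, from 3 in the main fit. Genes called for KO3.20 moved as well, to 2407, 2850, 4346 and 2612 in that order, from 2312. Members called for KO1.8 were 0 with the Wald test (2 at an unadjusted p under 0.05) and 2 against Par alone. For the difference of KO effects they were 2 after the GC and length correction. With each library left out in turn, members called ranged from 1 to 3 for SKmel147 KO, 1 to 2 for KO1.4, 1 to 4 for KO1.5, 2 to 5 for KO3.20, 1 to 6 for NT minus Par, 2 to 4 for KO1.8 and 1 to 2 for the difference of KO effects. Over all alternatives, genes called ran from 442 to 3421 for KO1.4, 615 to 4242 for KO1.5 and 740 to 4346 for KO3.20. They ran from 436 to 2938 for NT minus Par, 4877 to 7355 for KO1.8 and 3245 to 5642 for the difference of KO effects. Where a line or library was left out or the line was the replicate, fewer samples entered the test, and for the other changes the cause was not tested. Genes under about 10 counts per library, such as WNT5A, DKK1 and FZD8 in 501mel, are limited by depth.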
